A study of Mus musculus with 8 samples.

Results

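The genes followed were 8 named G protein-coupled receptor genes of mouse bone marrow-derived macrophages (BMMs): Gpr84, Gpr35, Gpr65, Gpr34, Gpr183, Ptafr, Ptger2 and Ptger4. Their ligands are lipids, prostaglandins, protons and small metabolites. The 8 members were chosen by name from a table of 11541 genes, with earlier results of the knockout against wild-type comparison of these same counts in view, and all 8 were present. The counts in the 8 libraries are therefore the values that chose them, and the differences between genotypes are given here as a description and not as a test of the members.

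Messenger RNA was sequenced from 4 libraries with the genotype label OGFRL1_KO (KO) and 4 labelled OGFRL1_WT (WT). BMMs are primary macrophages expanded from bone marrow with macrophage colony-stimulating factor (M-CSF), and all 8 cultures were seeded with non-adherent marrow cells and kept in M-CSF at 25 ng/mL for 4 days. The sources used here do not state the allele, strain or age. The labels name no agent beside M-CSF, so no ligand of these receptors and no inflammatory stimulus is stated for any culture. They do not say whether each library is a separate animal, so the spread between libraries may be partly technical.

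These receptors sit in the plasma membrane and pass the arrival of a ligand to heterotrimeric G proteins. Receptors coupled to the stimulatory G protein, among them the prostaglandin E2 receptors and the proton sensor Gpr65, raise the second messenger cyclic AMP, which in macrophages is known to restrain the output of inflammatory cytokines. Receptors coupled to the inhibitory G protein, such as Gpr84, Gpr34 and Gpr183, lower cyclic AMP and are best known for chemotaxis and for control of phagocyte activation.

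The sequence at the start of 3 of the genes is shown, chosen from the KO and WT values. Gpr84 and Ptger4 were the members with higher library-scaled counts in every KO library than in any WT library. That pattern was held by 1.22% of all genes. Gpr65 was an abundant member with a lower KO mean, as was Gpr183. Each line runs from 250 bases before to 50 bases after the start site, 5′ to 3′ on the strand of the gene, from RefSeq on GRCm38.p6, the assembly behind mm10. Capitals mark CG dinucleotides. Gpr84 is shown from chr15:103310389-103310688 on the minus strand, Ptger4 from chr15:5244138-5244437 on the minus strand and Gpr65 from chr12:98268385-98268684 on the plus strand.
Gpr84: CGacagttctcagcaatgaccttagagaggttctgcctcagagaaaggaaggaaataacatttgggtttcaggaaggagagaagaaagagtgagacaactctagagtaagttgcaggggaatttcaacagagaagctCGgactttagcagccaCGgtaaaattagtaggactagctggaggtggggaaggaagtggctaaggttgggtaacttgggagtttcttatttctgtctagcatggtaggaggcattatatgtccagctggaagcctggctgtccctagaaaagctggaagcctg
Ptger4: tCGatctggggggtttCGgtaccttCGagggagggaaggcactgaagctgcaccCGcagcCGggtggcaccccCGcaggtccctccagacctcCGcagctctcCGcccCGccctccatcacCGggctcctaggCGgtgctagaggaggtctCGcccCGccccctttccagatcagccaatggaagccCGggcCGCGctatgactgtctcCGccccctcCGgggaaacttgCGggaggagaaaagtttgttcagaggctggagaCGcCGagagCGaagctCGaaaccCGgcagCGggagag
Gpr65: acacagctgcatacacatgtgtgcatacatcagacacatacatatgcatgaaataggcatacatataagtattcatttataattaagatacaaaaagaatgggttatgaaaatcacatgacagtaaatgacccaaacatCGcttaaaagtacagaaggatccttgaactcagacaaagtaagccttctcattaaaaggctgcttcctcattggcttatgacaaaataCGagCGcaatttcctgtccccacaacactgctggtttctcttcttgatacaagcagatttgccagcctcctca

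The promoters of Gpr84 and Ptger4 differed in composition. Ptger4 had 25 CG dinucleotides and 67% GC over its 300 bases. Gpr84 had 3 CG dinucleotides and 47% GC. Gpr65 also had 3, with 38.3% GC. The median over 32851 promoters of the same length was 7 CG dinucleotides and 52.7% GC. An entry was found for 7 of the 8 members, not for Gpr34, and 7 of the 8 entries (Gpr35 has a pair) began at the start given in the deposited table. In all, 4 short motifs were searched on both strands. The purine-rich core GAGGAA, bound by ETS factors such as the macrophage regulator PU.1, lay in 28.3% of all promoters and in those of Gpr65, Ptafr and the inner start of Gpr35. TGANTCA, the AP-1 element, lay in 7.81% of all promoters and only at the inner start of Gpr35 among the members. TATAAA lay in 13.6% of all promoters and, among the members, only in that of Gpr65, 175 bases before the start and on the opposite strand. TGACGTCA, the cyclic AMP response element, lay in 1.79% of all promoters and in none of the members'. None of the 4 motifs was found in the windows of Gpr84, Ptger4, Ptger2 or Gpr183.

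Total counts ran from 47779990 to 53567289 in KO and from 39601341 to 61556269 in WT, and the members had from 92 reads (Gpr34) to 5235 reads (Gpr84) in a library. WT replicates 1 and 2 stood apart from the other 6 libraries, with 75.76 to 76.44% uniquely mapped reads against 83.83 to 87%, and 6.07 to 7.03% mitochondrial reads against 1.49 to 3.17%. Of those 6, KO replicate 2 came nearest to the pair in mitochondrial reads (3.17%) and ribosomal RNA reads (2.71%, against 1.79 to 1.83% in the pair). Its uniquely mapped share, 84.87%, did not stand out. Genes with GC-rich transcripts tended to have the higher log2 fold changes of KO over WT (Spearman rho 0.72 across 11471 genes, which share the libraries), and much less so once WT replicates 1 and 2 were left out (rho 0.09). For each member the fold change is therefore also given without those libraries and after a correction for GC content. Ogfrl1, the gene named in the genotype labels, had 163 ± 23.7 CPM (counts scaled to library size) in KO and 213 ± 73.8 CPM in WT (SD, n = 4), with overlapping groups, so its counts did not check the labels. WT replicates 1 and 2 averaged 276 CPM and WT replicates 3 and 4 averaged 150.3 CPM, and the log2 fold change of Ogfrl1 was -0.39 with all libraries and 0.12 without the first pair. All 10 macrophage markers looked up were among the rows, with a summed level of 21778 to 23581 CPM in KO and 19166 to 22689 CPM in WT.

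No member passed the test between genotypes, and no other gene did. By edgeR's quasi-likelihood test, 0 of 8 members and 0 of 11541 genes (0%) had a Benjamini-Hochberg adjusted p under 0.05. The lowest adjusted p was 0.404 over all genes, and the members lay between 0.404 and 0.664. DESeq2 called 1 gene, Cxcl16, and limma-voom 0. When limma-voom weighted the libraries by quality it called 6162 genes (53.4%), among them 6 of the 8 members. These were all but Gpr35 and Gpr183, with adjusted p between 0.0126 and 0.0437 for the 6. Within WT, that fit gave replicates 1 and 2 (weights 0.774 and 1.02) more weight than replicates 3 and 4 (0.392 and 0.185). At an unadjusted p under 0.05 in edgeR stood 752 genes, 232 with higher values in KO (2.01%) and 520 with lower values (4.51%). The KO mean was higher for 5 members and lower for 3. KO and WT did not overlap in 3 members, of which Gpr84 and Ptger4 were higher in KO, a pattern held by 1.22% of all genes, and Gpr34 was lower, a pattern held by 1.42% of all genes. Nothing is read from these counts, since the same comparison chose the members. The median log2 fold change was 0.11 over the 8 members and -0.00472 over all genes.

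**Figure D1:**
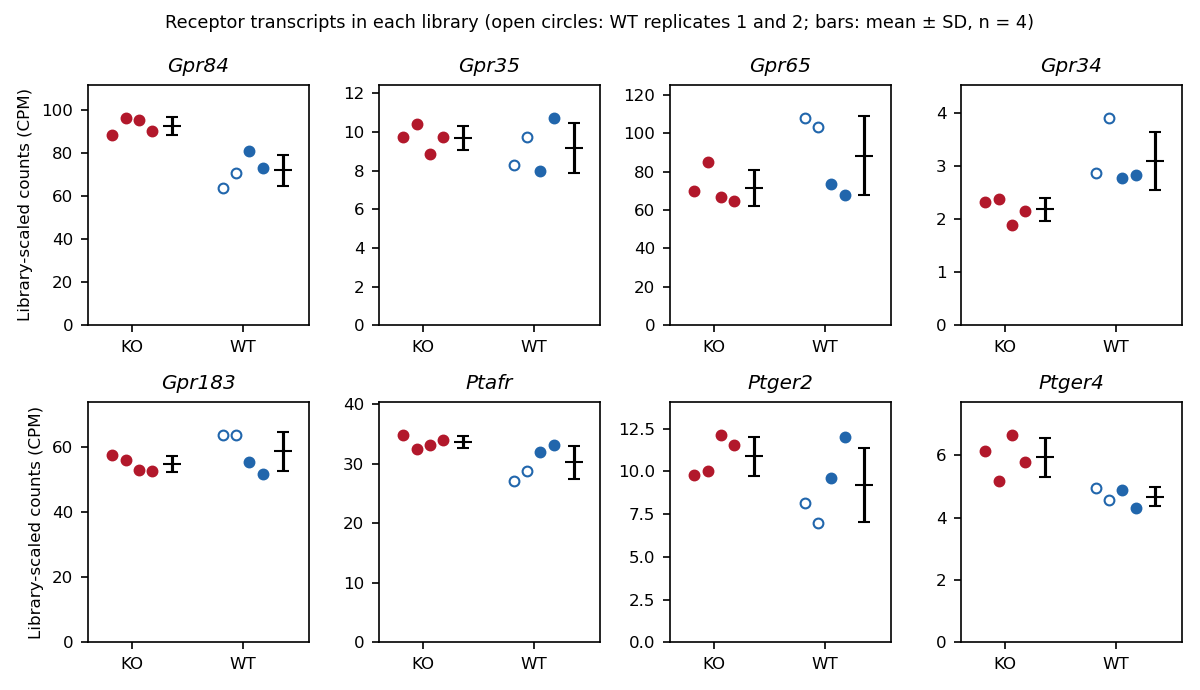
Library-scaled counts (CPM, linear axes from 0) of the 8 receptor genes in 4 KO libraries (red, left) and 4 WT libraries (blue, right), 1 point per library, with open circles for WT replicates 1 and 2 and bars for the mean ± SD. The KO points of Gpr84 (88.1 to 96.3 CPM) and Ptger4 (5.17 to 6.65 CPM) lie above all WT points, those of Gpr34 (1.88 to 2.37 CPM) lie below them, and the open circles are the highest WT points of Gpr65.

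Gpr84 is a receptor for medium-chain fatty acids, and especially their hydroxylated forms, whose expression macrophages raise on exposure to lipopolysaccharide. Gpr84 (chromosome 15, 103308235 to 103310438, minus strand, mm10, 2 exons) had 88.1, 96.3, 95.5 and 90.2 CPM in KO replicates 1 to 4, against 63.5, 70.5, 80.9 and 72.9 CPM in WT replicates 1 to 4. All KO libraries were higher than the highest WT library, and WT replicates 1 and 2 were the lowest of the 8. The log2 fold change was 0.36 (SE 0.0837, 95% CI 0.17 to 0.55), a ratio of 1.29. It was 0.27 without WT replicates 1 and 2 and 0.17 after the GC correction. The Gpr84 transcript has 54.7% GC, above the median of 49.3% over all genes. The authors' deposited table gave a log2 fold change of 0.36 for Gpr84, with an unadjusted p of 0.000623 and a false discovery rate of 0.447.

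Gpr35, a receptor known to respond to kynurenic acid and other carboxylic acids, was far less abundant. Gpr35 (chromosome 1, 92973119 to 92986391, plus strand, 4 exons) had 9.74, 10.4, 8.87 and 9.74 CPM in KO replicates 1 to 4 and 8.28, 9.73, 7.996 and 10.7 CPM in WT replicates 1 to 4. The WT libraries spanned the whole KO range, and the highest and lowest values both belonged to WT. Its log2 fold change of 0.0763 (SE 0.12, 95% CI -0.19 to 0.34) was the smallest in size among the members, and became 0.0483 without WT replicates 1 and 2 and 0.0336 after the GC correction. Gpr84 and Gpr35, both sensors of acidic metabolites, had the same sign, and only in Gpr84 did the groups not overlap.

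Gpr65, also called TDAG8, is activated by extracellular protons and couples acid exposure to cyclic AMP. Gpr65 (chromosome 12, 98268635 to 98276722, plus strand, 2 exons) had 69.7, 84.9, 66.6 and 64.8 CPM in KO replicates 1 to 4, against 108.1, 103.5, 73.8 and 68.0 CPM in WT replicates 1 to 4. The WT libraries fell into a high pair, replicates 1 and 2, and a lower pair inside the KO range. KO over WT gave a log2 fold change of -0.30 (SE 0.17, 95% CI -0.68 to 0.0737). Without WT replicates 1 and 2 it was 0.0126, with the opposite sign, and after the GC correction it was -0.0901, with 42.3% GC in the transcript. The mean over WT replicates 1 and 2 was 105.8 CPM, against 70.9 CPM over WT replicates 3 and 4.

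Gpr34, a receptor for lysophosphatidylserine best known from microglia, was the least abundant member. Gpr34 (chromosome X, 13632769 to 13640858, plus strand, 3 exons) had 2.33, 2.37, 1.88 and 2.15 CPM in KO replicates 1 to 4, against 2.87, 3.91, 2.77 and 2.83 CPM in WT replicates 1 to 4. These are 92 to 175 reads per library. Every KO library was lower than every WT library, and WT replicate 2 stood well above the other WT libraries. The log2 fold change was -0.50 (SE 0.16, 95% CI -0.86 to -0.14), a ratio of 0.706. It was -0.36 (SE 0.156) without WT replicates 1 and 2 and -0.21 (SE 0.152) after the GC correction. At 37.1% GC, the Gpr34 transcript lay below the lowest decile of all genes, which ended at 41.2%. In the authors' deposited table Gpr34 had a log2 fold change of -0.50, an unadjusted p of 0.00706 and a false discovery rate of 0.447. In bulk RNA, fewer cells with a transcript and less transcript per cell cannot be told apart, here and for the other members.

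Gpr183, also called EBI2, guides leukocyte migration along gradients of the oxysterol 7α,25-dihydroxycholesterol. Gpr183 (chromosome 14, 121952331 to 121965193, minus strand, 2 exons) had 57.6, 55.9, 52.7 and 52.4 CPM in KO replicates 1 to 4, against 63.6, 63.5, 55.4 and 51.7 CPM in WT replicates 1 to 4. WT replicates 1 and 2 were the highest of the 8 libraries, and the lowest value belonged to WT replicate 4. The log2 fold change of -0.0989 (SE 0.0862, 95% CI -0.29 to 0.0969) turned to 0.0299 without WT replicates 1 and 2 and to 0.0384 after the GC correction.

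Ptafr, the receptor for the phospholipid mediator platelet-activating factor, had the smallest relative spread among KO libraries of the 8 members. Ptafr (chromosome 4, 132564067 to 132580866, plus strand, 2 exons) had 34.8, 32.4, 33.2 and 33.9 CPM in KO replicates 1 to 4, against 27.0, 28.8, 31.9 and 33.2 CPM in WT replicates 1 to 4. WT replicates 1 and 2 were the lowest of the 8, and WT replicate 4 reached the KO range. KO over WT gave a log2 fold change of 0.15 (SE 0.0820, 95% CI -0.0342 to 0.34), 0.0462 without WT replicates 1 and 2 and 0.13 after the GC correction.

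Ptger2 and Ptger4 encode EP2 and EP4, a pair of prostaglandin E2 receptors that both couple to the stimulatory G protein. Ptger2 (chromosome 14, 44988111 to 45003820, plus strand, 2 exons) had 9.80, 10.05, 12.1 and 11.5 CPM in KO replicates 1 to 4, against 8.18, 6.99, 9.62 and 11.99 CPM in WT replicates 1 to 4. The 3 lowest libraries were WT, and WT replicate 4 was the second highest of all. The log2 fold change of 0.24 (SE 0.17, 95% CI -0.14 to 0.62) was 0.00905 without WT replicates 1 and 2 and 0.35 after the GC correction.

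Ptger4 (chromosome 15, 5233399 to 5244187, minus strand, 4 exons) had 6.15, 5.17, 6.65 and 5.77 CPM in KO replicates 1 to 4, against 4.94, 4.58, 4.87 and 4.31 CPM in WT replicates 1 to 4. All KO libraries were higher than all WT libraries, and the gap between KO replicate 2 and WT replicate 1 was small. The log2 fold change was 0.34 (SE 0.11, 95% CI 0.0892 to 0.60), a ratio of 1.27. It was as large without WT replicates 1 and 2 (0.37) and larger after the GC correction (0.51), at a transcript GC content of 43.6%. In the authors' deposited table Ptger4 had a log2 fold change of 0.35, an unadjusted p of 0.0159 and a false discovery rate of 0.447.

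**Figure D2:**
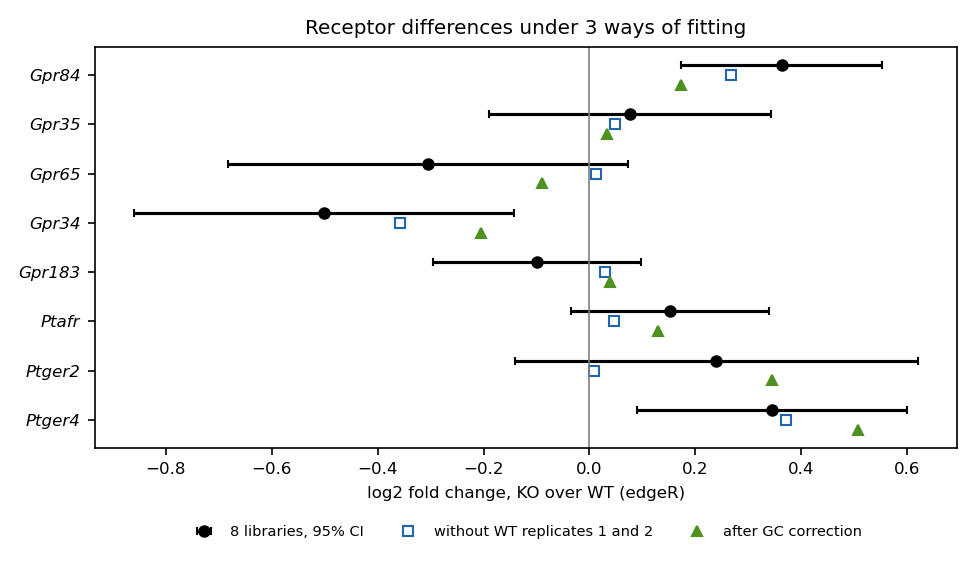
Log2 fold change of KO over WT for each receptor gene, with all 8 libraries (black, with 95% confidence interval), without WT replicates 1 and 2 (open squares) and after GC correction (triangles). The squares of Gpr84, Ptger4 and Gpr34 lie at 0.27, 0.37 and -0.36, and those of the other 5 lie between 0.00905 and 0.0483.

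Without WT replicates 1 and 2, the log2 fold changes of Gpr35, Gpr65, Gpr183, Ptafr and Ptger2 lay between 0.00905 and 0.0483. That of Gpr35 was already 0.0763 with all libraries and barely moved. Gpr84, Ptger4 and Gpr34 had 0.27, 0.37 and -0.36. The GC content of the transcripts ran with the sign of the differences for all members but Ptger4 and Ptger2. Gpr84, Gpr35 and Ptafr, with 54.7, 50.6 and 50.0%, lay above the median of 49.3% over all genes and had higher KO means. Gpr34, Gpr65 and Gpr183, with 37.1, 42.3 and 44.9%, lay below it and had lower KO means. Ptger4 and Ptger2, with 43.6 and 44.9%, also lay below it but had higher KO means. Whether GC content or the state of WT replicates 1 and 2 accounts for any of these differences was not tested.

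**Figure D3:**
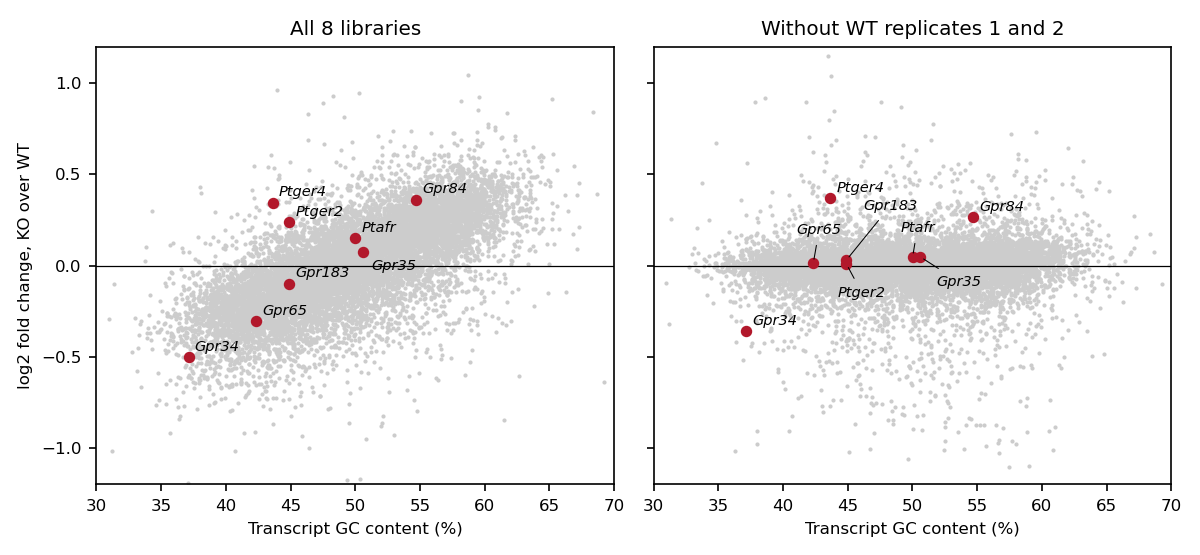
Log2 fold change of KO over WT against transcript GC content for 11471 genes (grey) with the 8 receptors in red, from all 8 libraries (left) and without WT replicates 1 and 2 (right). The grey cloud climbs with GC content at left (rho 0.72) and is nearly flat at right (rho 0.09), and Ptger4 lies at the upper edge of the cloud in both panels. The axes leave out 8 genes at left and 7 at right.

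The WT libraries were more variable than the KO libraries for 7 of the 8 members, Ptger4 being the exception. How many of all genes share this was not counted, so it is not read as a trait of the receptors. The coefficient of variation (SD over mean) of Gpr84 was 4.35% in KO and 9.96% in WT, of Gpr65 12.8% in KO and 23.1% in WT, and of Ptafr 3.05% in KO and 9.32% in WT. For Ptger4 it was 10.5% in KO and 6.22% in WT. Counting error alone gives about 1.55% for Gpr84, 6.12% for Ptger4 and 8.69% for Gpr34 at their mean counts. The spread of Gpr34 in KO, 10.2%, was thus close to counting error, whereas that of Gpr65 in either group was far above its 1.59%.

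The receptors were also ordered by level, as a description of the libraries that chose them. Levels were put on a common scale as CPM per kilobase of the deposited gene length. Gpr84 was the most abundant, at 59.7 ± 2.60 CPM per kilobase in KO and 46.4 ± 4.62 in WT (SD, n = 4). Its mean over all 8 libraries, 53.0, was at or above 88.4% of the 11541 genes in the deposited table. Gpr65 followed with 33.3 ± 4.27 in KO and 41.2 ± 9.50 in WT. Gpr183 had 18.6 ± 0.856 in KO and 19.9 ± 2.03 in WT, and Ptafr 18.5 ± 0.564 in KO and 16.6 ± 1.55 in WT, both CPM per kilobase.

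The other 4 receptors were lower by several-fold. Ptger2 had 2.89 ± 0.3001 CPM per kilobase in KO and 2.44 ± 0.571 in WT, Gpr35 2.15 ± 0.140 in KO and 2.04 ± 0.286 in WT, Ptger4 1.78 ± 0.187 in KO and 1.40 ± 0.0873 in WT, and Gpr34 1.15 ± 0.117 in KO and 1.63 ± 0.287 in WT. The mean of Gpr34 over 8 libraries was at or above 15.1% of the genes in the deposited table. That table held no gene low enough for the default filter to remove, so genes without expression do not enter these shares. Among the receptors that raise cyclic AMP, the transcript level of Gpr65 thus stood far above those of Ptger2 and Ptger4, and that of Ptger2 above that of Ptger4. Protein was not measured.

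**Figure D4:**
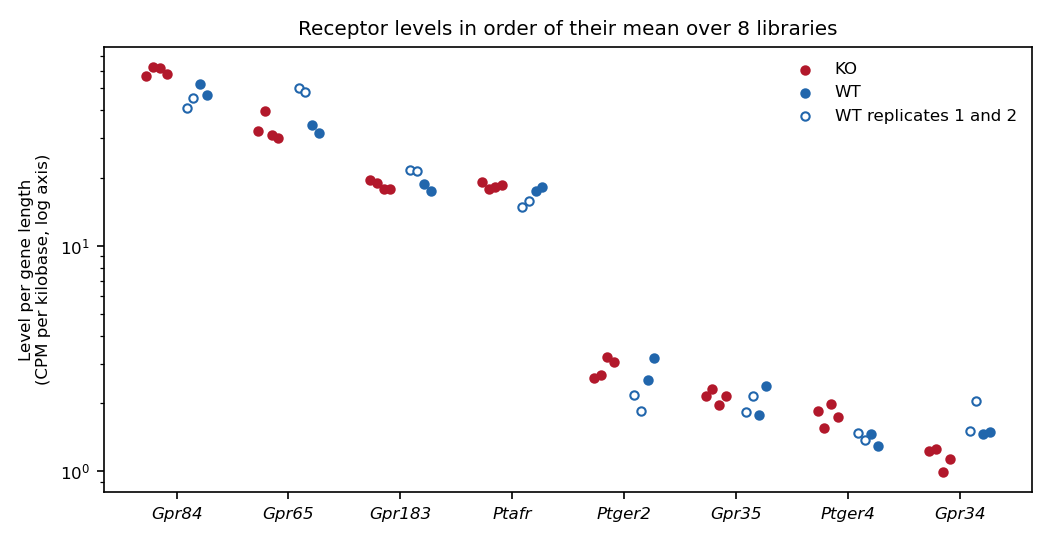
Level of each receptor in CPM per kilobase of gene length (log axis), ordered by the mean over 8 libraries, with 4 KO libraries in red at left and 4 WT libraries in blue at right of each position, open circles for WT replicates 1 and 2. The first 4 receptors lie between 14.8 and 62.1 and the other 4 between 0.991 and 3.22, and the open circles of Gpr65 reach above those of Gpr84.

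Neighbours in this order were set side by side within each library. No test is drawn on here, since the same libraries made the order. Ptafr stood above Ptger2 in 8 of 8 libraries, by 2.74 ± 0.196 on the log2 scale (mean ± SD over 8 libraries), the widest gap of the 7. Gpr65 stood above Gpr183 in 8 of 8, by 0.93 ± 0.190. Gpr35 stood above Ptger4 in 7 of 8 libraries, by 0.40 ± 0.283, and Ptger2 above Gpr35 in 7 of 8, by 0.33 ± 0.279, both gaps not much wider than their SD. Gpr183 stood above Ptafr by 0.14 ± 0.233 and Ptger4 above Gpr34 by 0.21 ± 0.516, each in 5 of 8 libraries. Both mean differences were smaller than their SD. For Ptger4 and Gpr34 that SD spans both genotypes, and Ptger4 was the higher of the pair in every KO library.

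The first place depended on the library. Gpr84 was above Gpr65 in 6 of 8 libraries, by 0.52 ± 0.470 on the log2 scale over all 8. The ratio of Gpr84 to Gpr65 per kilobase was 1.75, 1.57, 1.99 and 1.93 in KO replicates 1 to 4, against 0.813, 0.943, 1.52 and 1.48 in WT replicates 1 to 4. Gpr84 led in every KO library and in WT replicates 3 and 4, and Gpr65 led in WT replicates 1 and 2. At the foot of the order, Gpr34 was below Ptger4 in each KO library and above it in WT replicates 1, 2 and 4.

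Genes on the other strand overlap some members, and the strand setting of the authors' counting is not stated in the labels or files. The deposited mapping statistics do list coding reads by strand. Across libraries, sense coding reads were 0.09 to 0.11% and antisense coding reads 12.69 to 14.01%. Whether the gene counts also used strand is not stated there. Gpr34 lies within the span of Cask and Gpr183 within that of Ubac2, each on the opposite strand, with 0 shared exon bases. Cask had 29.97 ± 1.94 CPM in KO and 34.5 ± 6.61 CPM in WT, and Ubac2 21.2 ± 2.33 CPM in KO and 17.0 ± 3.30 CPM in WT (SD, n = 4). GENCODE vM21 lists antisense exons over 681 bases of Gpr84 (Gm49482), 511 of Gpr65 (Gm47566), and 246 and 144 of Ptger2 (Gm17173 and Gm49364). If strand was not used, reads of those transcripts and of the receptors cannot be told apart.

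The genes whose course over the 8 libraries was most like that of Gpr84 and Gpr34 were found among 9888 genes, by the smallest root mean square difference of log2 CPM deviations from each gene's own mean. Nearest to Gpr84 were Dcakd (difference 0.0645), Stra13 (0.0761), the glucose transporter gene Slc2a1 (0.0773) and the alpha-tubulin gene Tuba1a (0.0780), where Gpr84's own deviation was 0.21 and the median gene differed by 0.27. Slc2a1 had 66.0 ± 3.89 CPM in KO and 55.1 ± 4.44 CPM in WT, and Tuba1a 41.6 ± 2.74 CPM in KO and 35.5 ± 3.25 CPM in WT (SD, n = 4). KO lay above WT without overlap in the first 3 of these, not in Tuba1a, a pattern held by 1.22% of all genes. Nothing is read from this, since the genes were picked for their likeness to Gpr84. Nearest to Gpr34 were Zfp958 (0.12), Stxbp6 (0.12), Cmah (0.13) and Zrsr1 (0.13), where Gpr34's own deviation was 0.30 and the median gene differed by 0.32. Cmah, which encodes the hydroxylase that makes the sialic acid Neu5Gc, had 2.89 ± 0.312 CPM in KO and 3.93 ± 0.814 CPM in WT, and KO and WT overlapped in all 4 of these genes. These likenesses are a description over 8 libraries that share the structure of WT replicates 1 and 2.

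Ligand enzymes, other receptors and downstream parts of the pathway were followed in 12 lists of 157 genes, of which 110 were tested and 47 were not among the rows analysed here. None of the 110 was called by edgeR. At an unadjusted p under 0.05 there were 0 with higher and 6 with lower KO values, against 2.01% and 4.51% of all genes, and 61 log2 fold changes were positive and 49 negative. The 6 were Lpar6, P2ry12, Hpgd, Ptges3, Hpgds and Rgs1.

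Prostaglandin metabolism held 3 of the 6. Of 10 tested genes of synthesis and removal, 0 passed over all genes, and the median log2 fold change was -0.10 (-0.0153 after the GC correction and -0.0584 without WT replicates 1 and 2). Hpgd, the enzyme that inactivates prostaglandin E2, had 4.65, 4.34, 4.97 and 5.10 CPM in KO replicates 1 to 4, against 11.5, 11.2, 4.87 and 5.57 CPM in WT replicates 1 to 4. Only WT replicates 1 and 2 were high, and the log2 fold change of -0.79 (SE 0.29) was -0.13 without them. Hpgds, the haematopoietic prostaglandin D synthase, had 219, 258, 199 and 205 CPM in KO replicates 1 to 4, against 368, 359, 259 and 214 CPM in WT replicates 1 to 4. The same WT pair was highest there, and the log2 fold change of -0.44 (SE 0.18) was -0.10 without it. Ptges3, a co-chaperone also described as a prostaglandin E synthase, had 214 ± 3.55 CPM in KO and 251 ± 28.7 CPM in WT (SD, n = 4). Ptges, the inducible prostaglandin E synthase, had 2.55 ± 0.252 CPM in KO and 1.92 ± 0.683 CPM in WT. Ptgir, the prostacyclin receptor and the 1 further prostanoid receptor tested of 7 listed, had 39.0 ± 4.70 CPM in KO and 32.9 ± 4.97 CPM in WT, a log2 fold change of 0.24.

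Enzymes for the ligands of the other receptors gave no call. Of the 3 tested enzymes for the Gpr183 ligand, 0 passed (median log2 fold change 0.27, 0.0446 without WT replicates 1 and 2). Ch25h, cholesterol 25-hydroxylase, had 69.9 ± 10.8 CPM in KO and 64.9 ± 7.75 CPM in WT, and Hsd3b7, which degrades that ligand, 27.1 ± 5.74 CPM in KO and 21.3 ± 7.27 CPM in WT. Of 7 enzymes of platelet-activating factor, 0 passed (median 0.0357). Pla2g7, its plasma acetylhydrolase, had 75.7 ± 2.70 CPM in KO and 81.1 ± 3.01 CPM in WT, and the intracellular acetylhydrolase genes Pafah1b3, Pafah1b1 and Pafah2 had log2 fold changes of 0.45, -0.15 and 0.30. Of the 2 tested lysophosphatidylserine enzymes, 0 passed: Abhd12, its lipase, had 300.3 ± 23.1 CPM in KO and 266 ± 42.8 CPM in WT, and Abhd16a, which forms it, 29.3 ± 4.09 CPM in KO and 22.5 ± 8.32 CPM in WT. Of 5 tryptophan and kynurenine enzymes, 0 passed (median 0.17), among them Kmo with 0.717 ± 0.176 CPM in KO and 0.577 ± 0.191 CPM in WT.

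Other receptors were likewise without a call. Of 30 further lipid and fatty acid receptors listed, 15 were tested and 0 passed (median log2 fold change 0.0245). Lpar6, a lysophosphatidic acid receptor, had 41.1, 45.8, 44.6 and 43.1 CPM in KO replicates 1 to 4, against 62.9, 64.8, 44.6 and 49.2 CPM in WT replicates 1 to 4, a log2 fold change of -0.34 (SE 0.13). It was -0.10 without WT replicates 1 and 2 and -0.00879 after the GC correction. The leukotriene receptor gene Cysltr1 had 45.2 ± 3.43 CPM in KO and 57.6 ± 14.98 CPM in WT, and the sphingosine 1-phosphate receptor gene S1pr2 60.5 ± 8.72 CPM in KO and 48.0 ± 12.5 CPM in WT. Of 9 tested metabolite, proton and nucleotide receptors, 0 passed (median 0.13). P2ry12, an ADP receptor, had 50.2, 64.9, 47.3 and 45.0 CPM in KO replicates 1 to 4, against 90.8, 94.0, 64.5 and 50.0 CPM in WT replicates 1 to 4, a log2 fold change of -0.53 (SE 0.21). It was -0.14 without WT replicates 1 and 2.

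**Figure D5:**
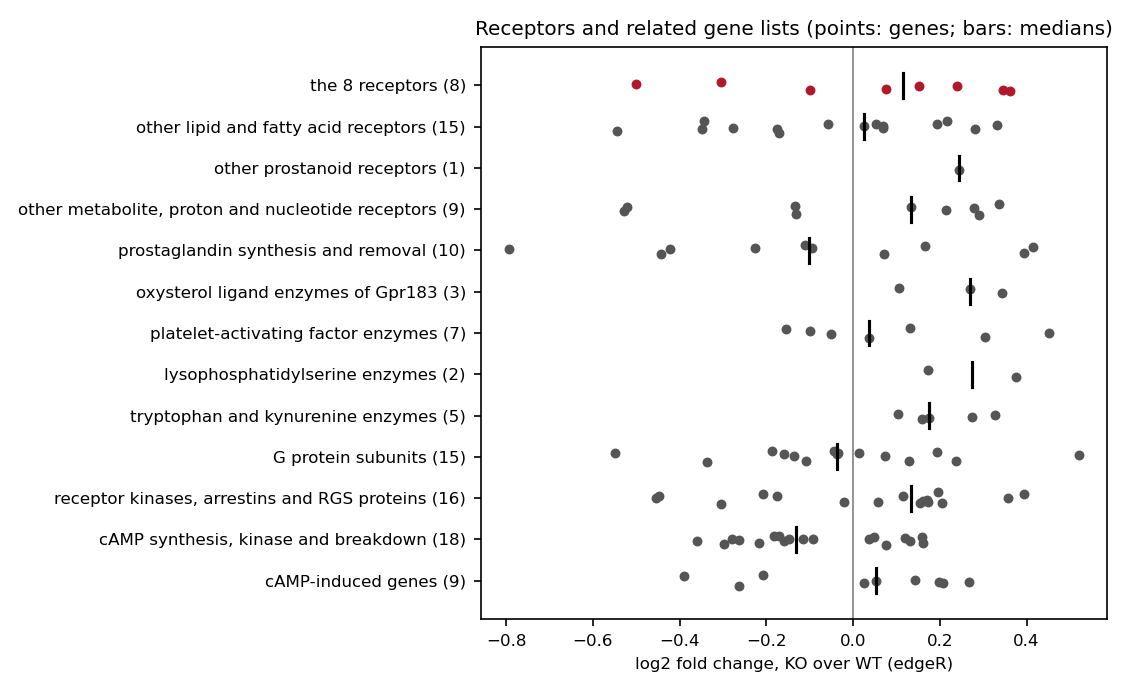
Log2 fold change of KO over WT of the 8 receptors (red, top) and of the tested genes of 12 related lists (grey, number tested in brackets), 1 point per gene with a bar at the median. The points of every list lie on both sides of 0 except in lists of 1 to 5 genes, and the medians run from -0.13 to 0.28.

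The 15 tested G protein subunits summed to 3169 to 3274 CPM in KO and 3174 to 3612 CPM in WT, and 0 passed (median log2 fold change -0.0373). Gna15, an alpha subunit of haematopoietic cells, had 23.9 ± 1.67 CPM in KO and 20.3 ± 2.65 CPM in WT. Of 16 receptor kinases, arrestins and RGS proteins, 0 passed (median 0.13). Rgs1, which speeds the shut-off of inhibitory G proteins, had 21.97, 23.5, 18.7 and 20.1 CPM in KO replicates 1 to 4, against 34.0, 33.3, 24.9 and 23.5 CPM in WT replicates 1 to 4. WT replicates 1 and 2 were highest, and the log2 fold change of -0.45 (SE 0.14) was -0.20 without them and -0.11 after the GC correction. Of 18 genes of cyclic AMP synthesis, its kinase and its breakdown, 0 passed (median -0.13). Prkaca, the catalytic subunit of protein kinase A, had 79.9 ± 0.478 CPM in KO and 71.5 ± 5.86 CPM in WT, and the phosphodiesterase gene Pde3b 42.6 ± 1.52 CPM in KO and 54.7 ± 13.8 CPM in WT. Of 9 genes known to be induced by cyclic AMP, 0 passed (median 0.0527), with Nr4a1 at 6.14 ± 0.359 CPM in KO and 5.09 ± 0.738 CPM in WT, and Nr4a2 at 3.33 ± 0.592 CPM in KO and 4.38 ± 1.08 CPM in WT (SD, n = 4).

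Markers of other cell types were set beside the receptors. Neutrophil and precursor markers, of which 9 of 10 were tested, summed to 273 to 309 CPM in KO and 316 to 352 CPM in WT, without overlap. Of the 9, 7 had a negative and 2 a positive log2 fold change (Ltf 0.0116 and Retnlg 0.0873), and 3 (S100a8, S100a9 and Lcn2) had lower KO values at an unadjusted p under 0.05, where 4.51% of all genes did. The list's median log2 fold change was -0.15, against -0.00472 over all genes, and 0 of the 9 passed the edgeR test. Stromal markers, 5 of 7 tested, summed to 22.1 to 92.6 CPM in KO and 12.2 to 126 CPM in WT. Dendritic cell markers, 2 of 6 tested, summed to 4.78 to 7.996 CPM in KO and 4.31 to 8.38 CPM in WT, and the 1 tested marker of 5 for mast cells, basophils and eosinophils, Prg2, had 0.239 to 1.04 CPM in KO and 0.340 to 0.940 CPM in WT. None of the 4 B cell, 5 T and NK cell and 4 erythroid markers was among the rows. The part of such cells in the receptor values was not tested.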

How the data were processed

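Messenger RNA libraries of BMMs (4 KO, 4 WT, by genotype label) were compared from the count columns of the deposited workbook. These are raw read counts per gene that the authors made with STAR and featureCounts on mm10 (per the file headers; the submitters' processing notes also name STAR and mm10). No source used here states versions, annotation release or strand setting. The deposited log2 FPKM values are the authors' length- and depth-scaled counts, per the file headers, and served as an alternative for the level order. The deposited p-value, false discovery rate and log2 fold change columns are the authors' own, from a tool not stated. Replicates were numbered in accession order. All deposited per-library columns belong to these samples.

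KO was compared with WT in R 4.3.3 by edgeR 4.0.16 (quasi-likelihood, TMM factors, two-sided), with Benjamini-Hochberg adjustment over 11541 genes and a threshold of 0.05. The default filter removed no gene. CPM are TMM-scaled. Confidence intervals at 95% use the moderated degrees of freedom. Levels are CPM per kilobase of the deposited gene length. Counting error was taken from mean counts, covers counting only, and is the finest precision these depths allow. Transcript GC came from the longest GENCODE vM21 transcript by symbol (99.4% of genes). For the correction, each library's log2 CPM deviations (prior count 2) were smoothed on GC (lowess span 0.3) and used as offsets. Promoters came from RefSeq. The fitting script was tested on simulated data.

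Alternatives were DESeq2 1.42.0, RLE factors, limma-voom (limma 3.58.1) without and with quality weights, a filter of 1 CPM in at least 4 libraries, no filter, an adjusted p under 0.1, each library left out, WT replicates 1 and 2 left out, and the GC correction. The members and lists were chosen with earlier results of these data known. Named genes are the 8 members, up to 4 genes of each list with the smallest unadjusted p, and the 4 genes most like Gpr84 and Gpr34 (mean log2 CPM of at least 1, no predicted names, neither Xist nor Y-linked). In 5 cases a list symbol was matched through its synonym.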

Additional observations from a re-analysis of the deposited data

Results flagged for a closer look

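Gpr34 in WT replicate 2 had 3.91 CPM, far from the other WT libraries at 2.77 to 2.87 CPM. The gap to the nearest library was 0.907 of the range of the group, above Dixon's critical value at 95% for 4 libraries. It was the only such case in 16 groups of 4 libraries (8 members in each genotype), and chance gives about 1 in 20. The value rests on 170 reads. Without WT replicate 2 the log2 fold change of KO over WT was -0.37, in place of -0.50.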

How the results depend on the processing

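The number of genes called was 0 in edgeR with RLE factors, no filter, a filter of 1 CPM in 4 libraries, an adjusted p under 0.1, the GC correction, WT replicates 1 and 2 left out, and in every fit without 1 library (0 to 0), and 0 by limma-voom. DESeq2 called 1, and limma-voom with quality weights 6162, with weights from 0.185 (WT replicate 4) to 3.67 (KO replicate 1). In that fit WT replicates 1 and 2 had more weight than WT replicates 3 and 4. Without WT replicate 4, 5207 genes had an unadjusted p under 0.05, in place of 752. The cause was not tested. Over all alternatives the log2 fold change of Gpr84 ran from 0.17 to 0.42, of Ptger4 from 0.29 to 0.51 and of Gpr34 from -0.61 to -0.21, each with 1 sign. A sign-flip test of the 7 neighbouring level pairs (adjusted over them, exact, two-sided) supports nothing, since the same libraries made the order. It passed 5 pairs, 5 with the authors' log2 FPKM, 0 to 5 without 1 library and 0 without WT replicates 1 and 2. The smallest unadjusted p this test can give is 0.0078 with 8 libraries, 0.0156 with 7 and 0.0313 with 6. Where 0 pairs passed, the lowest adjusted p was 0.0547, so a fall to 0 does not show a changed order.

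Signs turned for 2 members. Gpr65 was 0.0126 and Gpr183 0.0299 without WT replicates 1 and 2, and Gpr183 was 0.0384 after the GC correction. Among list and marker genes, sign turns were counted for the 57 named ones only, and 27 of their log2 fold changes under an alternative turned sign. Without WT replicates 1 and 2 they were 0.0158 for Cysltr1, -0.00943 for Hsd3b7, -0.00594 for Abhd12, 0.0129 for Gng5, 0.0445 for Gng12, 0.0690 for Rgs18, -0.21 for Itgax and -0.21 for Prg2. After the GC correction they were 0.00818 for Cysltr1, 0.0841 for Pafah1b1, -0.0188 for Abhd12, -0.0293 for Got2, -0.0647 for Gna15, -0.00538 for Rgs19, 0.11 for Rgs18, -0.0372 for Prkaca, -0.16 for Per1 and -0.0677 for Prg2. By limma-voom Prg2 was -0.0906. With 1 library left out, the range was -0.85 to 0.24 for Sparc, -0.86 to 0.36 for Col1a2, -0.79 to 0.37 for Col3a1 and -0.90 to 0.37 for Col1a1 (positive without WT replicate 4), -0.0248 to 0.34 for Itgax and -0.16 to 0.35 for Prg2.

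No paired analysis was possible because the labels give every library a different number. Depth limits Gpr34 most, at 92 to 175 reads.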

Other observations

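Purinergic and adenosine receptors, which macrophages use to sense nucleotides released by damaged cells, differed in direction among themselves. P2ry14, a UDP-glucose receptor, had 0.854 ± 0.139 CPM in KO and 1.24 ± 0.340 CPM in WT (SD, n = 4). P2ry2, an ATP and UTP receptor, had 24.3 ± 2.04 CPM in KO and 19.8 ± 4.56 CPM in WT, and the adenosine receptor gene Adora2b 7.42 ± 0.893 CPM in KO and 6.10 ± 1.13 CPM in WT. None passed the edgeR test. Without WT replicates 1 and 2 the log2 fold changes were -0.22 for P2ry14, 0.0423 for P2ry2 and 0.0717 for Adora2b.

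In some G protein subunits and RGS proteins, none past the edgeR test, the WT libraries also fell into separate pairs. Gng5, a gamma subunit, averaged 99.95 ± 18.9 CPM in KO and 146 ± 54.9 CPM in WT, where replicates 1 and 2 averaged 194 CPM and replicates 3 and 4 averaged 99.1 CPM. Rgs18 averaged 31.8 ± 1.03 CPM in KO and 39.4 ± 10.5 CPM in WT, with 48.4 CPM in WT replicates 1 and 2 and 30.4 CPM in WT replicates 3 and 4. Rgs14 averaged 33.3 ± 3.58 CPM in KO and 25.99 ± 6.34 CPM in WT, with 20.6 CPM in WT replicates 1 and 2 and 31.4 CPM in WT replicates 3 and 4.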
